A study of Mus musculus with 20 samples.

Results

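Mouse hepatoma cells of the line Hepa-1 that had met both hexavalent chromium, Cr(VI), and benzo[a]pyrene (B[a]P) by passage 20 were compared with cells that had met neither. The comparison rests on 4 of the 20 RNA-seq libraries of the series. They were chosen by their labels, 2 for the joint exposure and 2 for neither. Cells of the joint exposure had been grown for 20 passages with Cr(VI), labelled 0.5 mM, and then met B[a]P, labelled 5 mM, for 8 hours. The group given B[a]P alone had been grown without Cr(VI) and had the same 8-hour B[a]P treatment. The group given Cr(VI) alone had been grown for 20 passages with Cr(VI) and treated for 8 hours with DMSO. The group given neither had been grown without Cr(VI) and treated for 8 hours with DMSO, and its libraries are titled untreated. The single exposures, with 2 libraries each, served for the sum against which the joint change was set. All groups shared alpha-MEM with 5% fetal bovine serum and a passage every 3 days. The units of the doses are given as labelled, and the series title speaks of low concentrations. A single cell line and 1 time after B[a]P are what these libraries hold, and whether duplicates were separate cultures is not in the labels. The p-values therefore measure only the spread between these libraries.

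B[a]P, a combustion product, binds the aryl hydrocarbon receptor (AHR), which pairs with ARNT and switches on genes of xenobiotic metabolism such as Cyp1a1. The enzymes it induces turn B[a]P into quinones and into diol epoxides that bind DNA, so antioxidant genes driven by NRF2 and damage response genes driven by p53 are known to respond as well. Cr(VI) is taken up by anion transporters and reduced inside the cell, which damages DNA and yields reactive oxygen. Earlier work on Hepa-1 cells linked chromium to crosslinks that hold histone deacetylases at the Cyp1a1 promoter, as background to comparing the joint exposure with each agent alone.

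Total counts were between 20976045 and 33113295 in the 8 libraries of passage 20, and 13969 genes were tested. Levels are given as CPM, the counts of a gene scaled to a common library size with TMM factors. On log2 CPM the duplicates had a correlation over genes of 0.992 for the joint exposure, 0.995 for B[a]P alone and 0.994 for neither, with 2.03%, 1.40% and 2.15% of genes over 2-fold apart. The duplicates of Cr(VI) alone had 0.936, with 32.2% of genes over 2-fold apart, and its replicate 2 held 25.4% of its counts in the 100 most counted genes. The share was taken for each library's own 100 most counted genes. It was 20.3% and 22.1% in the joint exposure and 18.4% and 19.5% in B[a]P alone. In the other Cr(VI) library it was 16.7%, and 17.2% in each of the libraries given neither. The Cr(VI) libraries do not enter the comparison of the joint exposure with neither. They do enter every sum, so departures from a sum are given below with each of them. Against defining hepatocyte markers the line was mixed. Alb was at 1181 and 1018 CPM in the joint exposure and 1190.2 and 1141 CPM with neither, and Afp passed 100 CPM in every library. Hnf4a, a defining hepatocyte transcription factor, was near 0, with 0.157 and 0.103 CPM in the joint exposure and 0.450 and 0.322 CPM with neither.

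Promoter sequences are shown for 4 genes whose levels the results below turn on, Cyp1a1 and Cyp1b1 as AHR targets and Srxn1 and Osgin1 as NRF2 targets. Each run holds the 250 bases before the gene's RefSeq start on GRCm38.p6, 5′ to 3′ on the gene's strand. Capitals in Cyp1a1 (chr9:57697363-57697612, plus strand) and Cyp1b1 (chr17:79715062-79715311, minus strand) mark GCGTG, the core of the element that AHR and ARNT bind, or its complement CACGC. Capitals in Srxn1 (chr2:152105274-152105523, plus strand) and Osgin1 (chr8:119436897-119437146, plus strand) mark TGANTCA, the element of AP-1 factors, which also forms part of the longer element bound by NRF2 with small MAF proteins.
Cyp1a1: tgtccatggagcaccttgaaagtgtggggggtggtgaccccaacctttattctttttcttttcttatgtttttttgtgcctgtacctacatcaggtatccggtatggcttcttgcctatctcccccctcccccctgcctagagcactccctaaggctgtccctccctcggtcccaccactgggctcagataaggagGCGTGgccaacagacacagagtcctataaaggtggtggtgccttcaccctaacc
Cyp1b1: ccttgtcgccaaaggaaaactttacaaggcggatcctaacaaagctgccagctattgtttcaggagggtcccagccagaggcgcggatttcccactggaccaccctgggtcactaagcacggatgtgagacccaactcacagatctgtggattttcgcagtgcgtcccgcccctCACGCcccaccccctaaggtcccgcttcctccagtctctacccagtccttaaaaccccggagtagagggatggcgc
Srxn1: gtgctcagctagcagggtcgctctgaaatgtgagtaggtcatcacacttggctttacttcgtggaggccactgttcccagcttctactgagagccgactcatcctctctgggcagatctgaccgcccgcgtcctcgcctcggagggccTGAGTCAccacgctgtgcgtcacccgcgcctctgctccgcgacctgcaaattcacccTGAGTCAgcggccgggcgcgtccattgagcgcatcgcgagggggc
Osgin1: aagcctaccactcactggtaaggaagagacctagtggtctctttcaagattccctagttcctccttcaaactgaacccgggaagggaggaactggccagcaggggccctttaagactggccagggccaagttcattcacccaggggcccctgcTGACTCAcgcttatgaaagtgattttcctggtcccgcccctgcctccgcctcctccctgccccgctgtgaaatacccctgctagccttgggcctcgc
Searched on both strands, GCGTG was found once in Cyp1a1, 54 bases before the start, and once in Cyp1b1, 76 bases before it. It was found in 28.2% of all 32851 promoters of the table, and in 42.4% of those genes called at least 2-fold higher under the joint exposure that had a promoter there, against 47.6% of all tested genes that had one. TGANTCA reads the same on both strands. It was found 102 and 45 bases before the start of Srxn1 and 97 bases before that of Osgin1, and in 6.75% of all promoters. The antioxidant element core TGACNNNGC, which a TGANTCA match also meets when C stands at N and GC follows, was in 10.2% of them. Among genes with a promoter there, TGANTCA was in 6.43% of those called at least 2-fold higher, against 6.22% of all tested. For TGACNNNGC these shares were 14.5% and 13.6%. The Nqo1 window held no GCGTG. Sites outside these windows were not searched.

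The joint exposure moved a large share of the messenger RNA of these cells. Of 13969 genes, 8302 passed an adjusted p of 0.05 (59.4%), with 3996 higher (28.6%) and 4306 lower (30.8%) than with neither. Among those at least 2-fold apart, 1384 were higher (9.91%) and 1903 lower (13.6%). B[a]P alone called 8149 genes against neither (58.3%), with 817 at least 2-fold higher and 1190 at least 2-fold lower. Cr(VI) alone called 0 (0%) in edgeR, with 956 at an unadjusted p under 0.05, and its duplicates spread widely. The joint exposure, B[a]P alone and Cr(VI) alone are all set against the same libraries given neither, so their values stand side by side and are not independent. The count for the joint exposure depends on which libraries set the spread. It was 3096 with all 8 libraries of passage 20 in the fit and 527 with all 20 of the series. When libraries were scaled by their totals only, 3071 genes were higher and 5104 lower, with a median of all genes of -0.16 on the log2 scale.

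**Figure D1:**
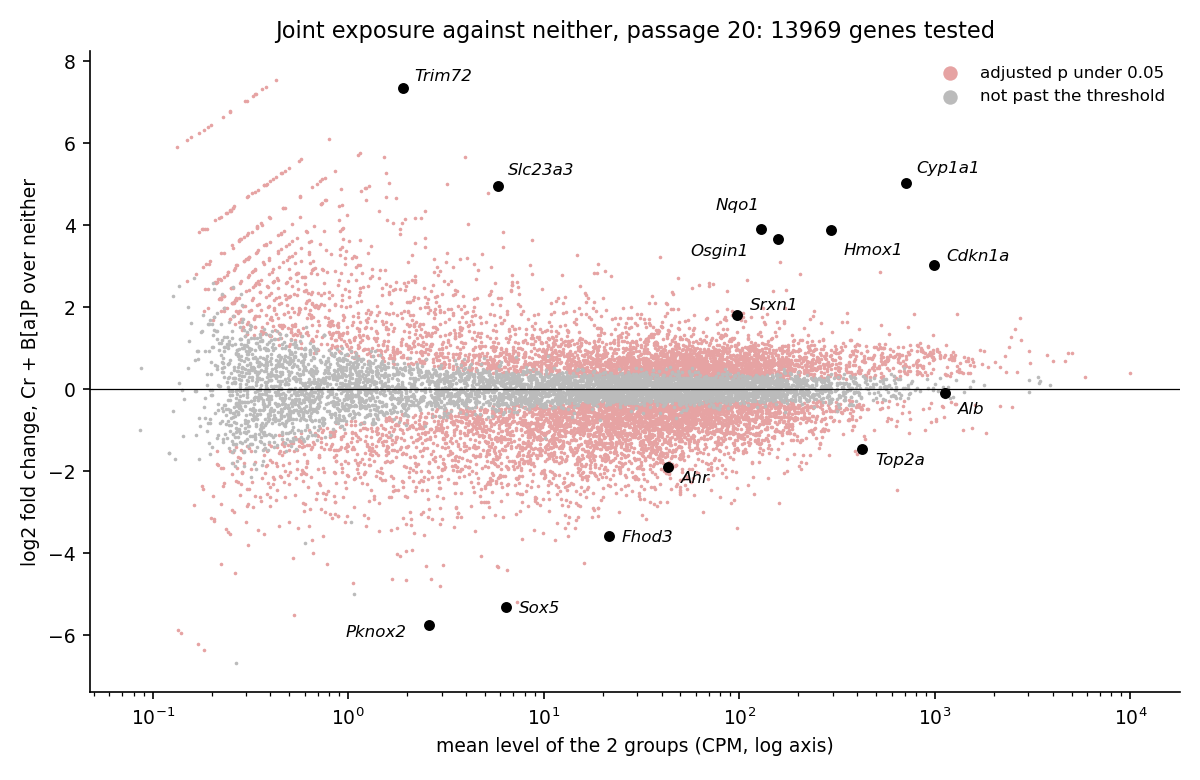
Every gene tested by its mean level in the joint exposure and neither (CPM, log axis) and its log2 fold change, joint exposure over neither. Each point is a gene, red where the adjusted p was under 0.05 and grey otherwise, and black points are named. Cyp1a1 stands at 5.02 with a high level, and Sox5 at -5.31; rows of points at the left are genes with a few counts, for which the fitted change depends on the prior count.

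Of the 12 largest rises among called genes with at least 2 CPM and no overlap between groups, Cyp1a1 was the one that started above 1 CPM. Cyp1a1 had 1407 and 1363 CPM in the joint exposure, against 43.6 and 41.9 CPM with neither, a 32.4-fold rise (log2 5.02 ± 0.11 SE, adjusted p = 3.32e-05). The other 11 came up from under 1 CPM with neither. Trim72, a membrane repair gene known from muscle, had 3.48 and 4.14 CPM in the joint exposure and 0 and 0.0322 CPM with neither, which is 210 counts against 1. Its ratio of 204 has a 95% counting interval of 36.3 to 8110. Myo1g, Tspyl4 and Crabp2 likewise had at most 3 counts in all with neither. Their ratios of joint exposure to neither were 60.8 (interval 16.5 to 508), 58.4 (15.8 to 487) and 54.8 (18.4 to 268), and these intervals cover counting error only. Slc23a3 had 10.8 and 11.8 CPM in the joint exposure, 2.98 and 4.03 with B[a]P alone, 1.58 and 2.64 with Cr(VI) alone and 0.405 and 0.322 with neither (log2 4.96 ± 0.21 against neither, adjusted p = 7.96e-05). Its libraries fell in that order without overlap between groups. Rhof, Gp5, Gnrh1, Zfp651, Rnf223 and Prrx2 complete the 12, with log2 changes between 4.92 and 5.65, each from at most 0.193 CPM with neither.

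The 12 largest falls were all in long genes, with genomic spans between 148 and 1300 kb. Sox5, a transcription factor of cartilage and neural development, had 0.391 and 0.240 CPM in the joint exposure and 13.3 and 11.8 CPM with neither (log2 -5.31 ± 0.23, adjusted p = 7.96e-05). Pknox2, a homeobox gene, had 0.0391 and 0.137 CPM in the joint exposure and 5.00 and 5.18 CPM with neither (log2 -5.73 ± 0.34). Ror1, which encodes a WNT5A receptor, had 0.626 and 0.171 CPM in the joint exposure and 14.6 and 13.7 CPM with neither (log2 -5.18 ± 0.33). The mineralocorticoid receptor gene Nr3c2, the Ikaros family gene Ikzf2, the cyclic AMP phosphodiesterase gene Pde4d, the kinase suppressor gene Ksr2 and the ephrin receptor gene Epha4 followed with log2 changes between -4.79 and -4.63. Arl15, Adamtsl3, the Notch coactivator gene Maml2 and Nckap5 were between -4.39 and -4.30. In each of these 12, every library of the joint exposure was below 1 CPM.

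Genes of xenobiotic metabolism rose under the joint exposure. Of 19 AHR target genes tested, 17 rose and 1 fell, 12 of them at least 2-fold up, with a list median of 1.48 on the log2 scale, against -0.01 for all genes tested. Of all genes tested 28.6% were called higher, and 9.91% at least 2-fold higher. Cyp1a1 encodes the cytochrome P450 that oxidises B[a]P. Cyp1a2, its neighbour on chromosome 9, had 66.2 and 51.9 CPM in the joint exposure and 20.3 and 20.2 CPM with neither (log2 1.54 ± 0.14, adjusted p = 2.91e-04). Cyp1b1, another P450 that oxidises B[a]P, had 29.2 and 24.6 CPM in the joint exposure and 11.3 and 11.7 CPM with neither (log2 1.22 ± 0.13). Tiparp, an ADP-ribosyltransferase that represses the AHR, had 83.5 and 71.5 CPM in the joint exposure and 19.7 and 20.2 CPM with neither (log2 1.95 ± 0.12). In all 4 genes the groups lay apart.

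Other members of the list rose as well. Nqo1, the quinone reductase, had 247 and 240 CPM in the joint exposure and 15.8 and 16.5 CPM with neither, a 15.1-fold rise (log2 3.91 ± 0.10, adjusted p = 3.32e-05). The aldehyde dehydrogenase gene Aldh3a1 had 278 and 300 CPM in the joint exposure and 33.8 and 33.1 CPM with neither (log2 3.11 ± 0.10). Tnfaip2 had 90.2 and 77.9 CPM in the joint exposure and 12.2 and 13.6 CPM with neither (log2 2.70 ± 0.13). The 1 member that fell was the flavin monooxygenase gene Fmo2, with 4.34 and 3.39 CPM in the joint exposure and 9.50 and 8.34 CPM with neither (log2 -1.21 ± 0.17). Counts of Ugt1a6a, Ugt1a6b and Ugt1a7c, which share exons, and of the paralogs Selenbp1 and Selenbp2 cannot be separated in such a table.

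The receptor itself was lower. Ahr had 21.1 and 15.8 CPM in the joint exposure and 69.6 and 66.7 CPM with neither (log2 -1.89 ± 0.15, adjusted p = 1.95e-04). With B[a]P alone it had 20.3 and 17.7 CPM, close to the joint exposure, and the libraries of Cr(VI) alone stood at 76.6 and 20.3 CPM. Of 15 genes for the receptor and its partners, 10 fell and 1 rose, where 30.8% of all genes were called lower. The coactivator gene Ncoa2 had 12.3 and 8.84 CPM in the joint exposure and 47.2 and 46.2 CPM with neither (log2 -2.15 ± 0.16), and the corepressor gene Nrip1 had 13.3 and 5.38 CPM against 62.9 and 65.0 CPM with neither (log2 -2.79 ± 0.36). Arnt, the partner that binds DNA with the AHR, was at log2 -0.56 ± 0.13 (adjusted p = 0.00946).

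**Figure D2:**
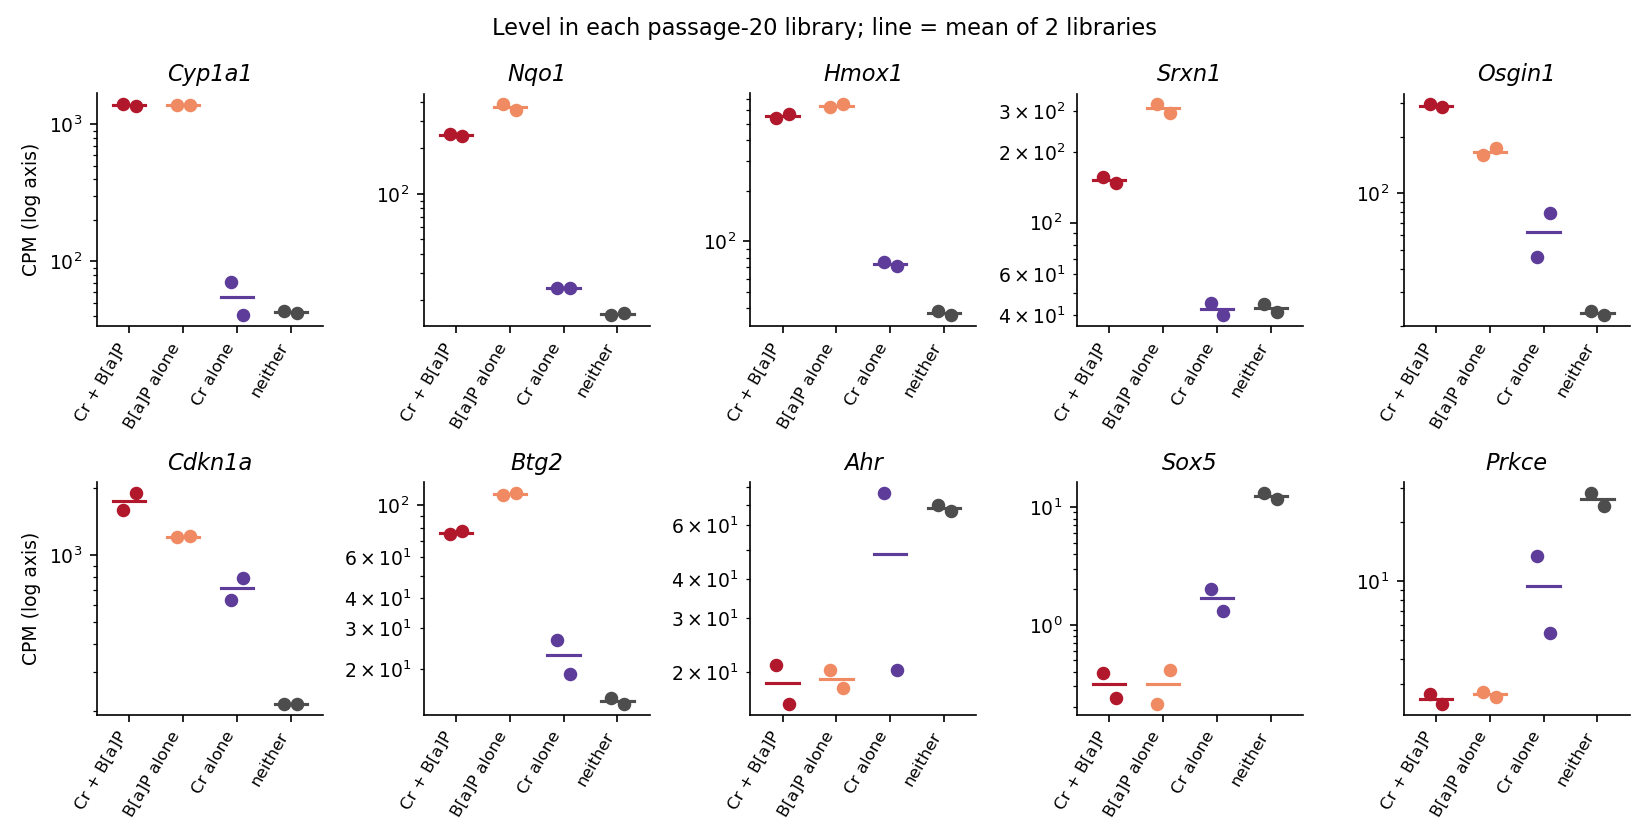
Level of 10 genes in each library of passage 20 (CPM, log axes that differ between panels and do not start at 0), for Cr(VI) with B[a]P, B[a]P alone, Cr(VI) alone and neither. Points are libraries and lines the means of 2, and Cyp1a1 reaches the same level in the joint exposure and B[a]P alone, while Srxn1 and Nqo1 are lower in the joint exposure and Osgin1 is higher.

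Antioxidant genes under NRF2 rose in number, beside 28.6% of all genes called higher and 9.91% called at least 2-fold higher. Of 29 tested, 24 rose and 1 fell, 17 of them at least 2-fold up, and the list median was 1.21 in the joint exposure, 0.98 with B[a]P alone, and 0.20 and 0.49 in the libraries of Cr(VI) alone. Hmox1, the gene of the oxygenase that breaks down heme, had 536 and 571 CPM in the joint exposure and 38.8 and 36.4 CPM with neither, a 14.7-fold rise (log2 3.88 ± 0.11, adjusted p = 3.32e-05). Osgin1, an oxidative stress gene linked to growth arrest, had 297 and 286 CPM in the joint exposure and 23.8 and 22.6 CPM with neither (log2 3.65 ± 0.10). Gclm and Gclc, the subunits of the enzyme that starts glutathione synthesis, stood at log2 1.92 ± 0.09 and 1.25 ± 0.12. The sulfiredoxin gene Srxn1, which repairs oxidised peroxiredoxins, had 157 and 147 CPM in the joint exposure and 44.9 and 41.3 CPM with neither (log2 1.82 ± 0.10, adjusted p = 9.10e-05). The cystine transporter gene Slc7a11, with 352 and 391 CPM in the joint exposure and 345 and 318 CPM with neither, did not pass (adjusted p = 0.204), and the 1 fall was that of the transporter gene Abcc4 (log2 -0.52 ± 0.13). Metal response genes were higher in 5 of 8 and lower in 1, beside 28.6% higher and 30.8% lower of all genes. Mt2, which encodes a metal-binding metallothionein, had 107 and 133 CPM in the joint exposure and 39.7 and 37.5 CPM with neither (log2 1.64 ± 0.13), while the libraries of Cr(VI) alone stood at 50.5 and 150 CPM. Mt1 had 243 and 325 CPM in the joint exposure and 127 and 121.5 CPM with neither (log2 1.19 ± 0.15).

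Targets of p53 rose. Of 32 tested, 25 rose and 2 fell, 18 of them at least 2-fold up, and the list median was 1.15. Of all genes tested 28.6% were called higher, 9.91% at least 2-fold, and 30.8% lower. Cdkn1a, the gene of the cyclin-dependent kinase inhibitor p21, had 1594 and 1915 CPM in the joint exposure and 215 CPM in each library given neither, an 8.17-fold rise (log2 3.03 ± 0.13, adjusted p = 7.96e-05). The stress cytokine gene Gdf15 had 762 and 1071 CPM in the joint exposure and 129 and 125.1 CPM with neither (log2 2.85 ± 0.18). Btg2, an antiproliferative gene, had 75.0 and 77.1 CPM in the joint exposure and 15.0 and 14.2 CPM with neither (log2 2.38 ± 0.10). The kinase gene Plk3 (log2 2.60 ± 0.12), the cell death genes Pmaip1 (log2 1.84 ± 0.11) and Bbc3 (log2 1.41 ± 0.12) and Mdm2, whose product degrades p53 (log2 1.19 ± 0.09), rose as well. The falls were those of the ribonucleotide reductase gene Rrm2b (log2 -1.03 ± 0.17) and of Sesn1 (log2 -0.75 ± 0.13).

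More of the fast stress genes rose than fell. Of 23 immediate early genes 13 rose and 4 fell, and of 20 ATF4 stress genes 11 rose and 4 fell. Of all genes tested, 28.6% were called higher and 30.8% lower. Fosl1, an AP-1 subunit, had 305 and 276 CPM in the joint exposure and 53.8 and 54.5 CPM with neither (log2 2.42 ± 0.10), and Jun and Atf3 rose (log2 1.35 ± 0.12 and 1.42 ± 0.10). Ppp1r15a, a phosphatase subunit that restores translation after stress, had 241 and 261 CPM in the joint exposure and 48.8 and 46.6 CPM with neither (log2 2.40 ± 0.10). Myc fell to 106 and 95.5 CPM in the joint exposure, against 209 and 199 CPM with neither (log2 -1.02 ± 0.10), and Klf6, Fosl2 and Klf10 fell with it, between -1.08 and -0.999. Egr1 did not pass (log2 -0.02 ± 0.11, adjusted p = 0.88). Of 17 endoplasmic reticulum chaperones 4 rose, 2 fell and 11 did not pass, with Hspa5 at log2 0.20 ± 0.10 (adjusted p = 0.107).

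Genes of mitosis, break repair and mismatch repair were lower in most of those tested. Beside them, 30.8% of all genes were called lower, 13.6% at least 2-fold. Of 28 genes of G2 and mitosis 21 fell and 0 rose, with a list median of -0.68. The mitotic kinase gene Plk1 had 71.1 and 71.2 CPM in the joint exposure and 178 and 173 CPM with neither (log2 -1.30 ± 0.09, adjusted p = 1.28e-04), and the topoisomerase gene Top2a 265 and 191 CPM against 643 and 603 CPM with neither (log2 -1.45 ± 0.16). Of 31 S phase genes 15 fell and 4 rose. Pcna, the sliding clamp of replication, was among the rises (log2 0.37 ± 0.09, adjusted p = 0.0136). Of 37 genes of break and crosslink repair 27 fell and 2 rose, 12 of them at least 2-fold down, with a list median of -0.85. Atm, the kinase that signals breaks, had 7.08 and 6.54 CPM in the joint exposure and 24.1 CPM in each library given neither (log2 -1.82 ± 0.11, adjusted p = 1.08e-04). Prkdc, the kinase of end joining, had 4.11 and 3.73 CPM in the joint exposure and 16.5 and 15.8 CPM with neither (log2 -2.05 ± 0.13). Brca2, a gene of homologous recombination, had 11.8 and 11.99 CPM in the joint exposure and 27.5 and 31.5 CPM with neither (log2 -1.31 ± 0.12), and the crosslink repair gene Fancd2 was at log2 -1.49 ± 0.18. Brca1 did not pass (log2 -0.35 ± 0.13, adjusted p = 0.0529). Of 8 mismatch repair genes 7 fell and 0 rose, with Msh3 at -1.52 ± 0.12. Of 36 excision repair genes 13 rose and 10 fell, shares near those of all genes (28.6% higher and 30.8% lower). Among them the endonuclease gene Ercc5 rose (log2 1.47 ± 0.10) as did the damage sensor genes Xpa (log2 0.96 ± 0.11) and Xpc (log2 0.88 ± 0.17), and the uracil glycosylase gene Ung fell (log2 -1.22 ± 0.12).

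Lipid synthesis was lower in most of its genes, beside 30.8% of all genes called lower and 28.6% higher. Of 23 genes of sterol synthesis 15 fell and 1 rose, with a list median of -0.74. Hmgcs1, which makes the precursor of mevalonate, had 55.4 and 48.0 CPM in the joint exposure and 143 and 146 CPM with neither (log2 -1.48 ± 0.11), and the last enzyme's gene Dhcr7 had 10.7 and 9.08 CPM against 39.0 and 39.2 CPM with neither (log2 -1.99 ± 0.12). Of 13 lipogenesis genes 8 fell and 1 rose, with the elongase gene Elovl6 at -1.72 ± 0.09 and Fasn, the fatty acid synthase, at -0.14 ± 0.20 (adjusted p = 0.556), the last of which changed sign to 0.14 without replicate 2 of the joint exposure. Chromatin modifiers fell in 15 of 25 and rose in 1, and formins with protein kinase C genes fell in 11 of 19 and rose in 4. Prkce had 2.66 and 2.36 CPM in the joint exposure and 28.3 and 24.2 CPM with neither (log2 -3.38 ± 0.15).

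Ribosomal protein genes were higher in 27 of 28, with 0 lower, and oxidative phosphorylation genes in 21 of 27, with 1 lower. Over all genes 28.6% were called higher and 30.8% lower. Their list medians were 0.78 and 0.56 in the joint exposure and 0.26 and 0.35 with B[a]P alone. In the libraries of Cr(VI) alone they were -0.02 and 1.49 for ribosomal proteins and -0.04 and 0.95 for oxidative phosphorylation, higher in the replicate 2 that stands apart. Rplp0 had 3401 and 4502 CPM in the joint exposure, 2454 and 2748 CPM with B[a]P alone and 1980.3 and 2172 CPM with neither (log2 0.93 ± 0.15 against neither, adjusted p = 0.00274). At passage 25 the median of the same ribosomal list was -0.32 with the replicate block. The share of counts in the 100 most counted genes moved with these lists, and its part in them was not tested.

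Markers of other cell types were counted beside these groups, where 28.6% of all genes were called higher and 30.8% lower. All libraries are labelled as a single cell line, so the markers are given as levels of genes and not as numbers of cells. Of 8 macrophage markers 4 were tested, with a summed level of 66.2 to 69.8 CPM in the joint exposure and 41.6 to 42.5 CPM with neither. Of these 3 rose and 0 fell. The largest rise was that of Cd68, with 20.5 and 20.2 CPM in the joint exposure and 5.54 and 5.47 CPM with neither (log2 1.88 ± 0.12, adjusted p = 1.03e-04), while Adgre1 was at 0.391 and 0.411 CPM in the joint exposure and 1.17 and 0.644 CPM with neither (adjusted p = 0.0577), and Ptprc, Clec4f, Marco and C1qa were too low to test. Of 6 endothelial markers only Pecam1 and Vwf were tested, and their summed level was 1.40 to 1.92 CPM in the joint exposure and 0.405 to 0.708 CPM with neither. Stellate and fibroblast markers summed to 706 to 905 CPM in the joint exposure and 1078 to 1152 CPM with neither, with 4 of 6 lower and 1 higher. Cholangiocyte markers summed to 1414 to 1558 CPM in the joint exposure and 1789 to 1797 CPM with neither, with 2 of 4 lower. Hepatocyte markers summed to 3039 to 3195 CPM in the joint exposure and 2636 to 2718 CPM with neither, with 5 of 10 higher and 2 lower. Their part in the results was not tested.

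Among the genes named above, the calls of Ahr, Ncoa2, Nrip1, Arnt, Cyp1b1, Fmo2, Gclc, Abcc4, Mt1, Mt2, Rrm2b, Klf6, Fosl2, Klf10, Pcna, Fancd2, Rplp0, Afp and Hnf4a did not pass when the spread came from all 8 libraries of passage 20, with adjusted p between 0.0544 for Mt2 and 0.371 for Afp. The rise of Pcna was also lost when libraries were scaled by totals only (adjusted p = 0.0699), as was that of Afp (adjusted p = 0.0705). Hnf4a did not pass in DESeq2 either (adjusted p = 0.251). With all 20 libraries in the edgeR fit further calls were lost, among them Tiparp, Plk1 and Top2a (adjusted p = 0.420, 0.403 and 0.239). Those of Cyp1a1, Nqo1, Hmox1 and Cdkn1a still passed there.

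**Figure D3:**
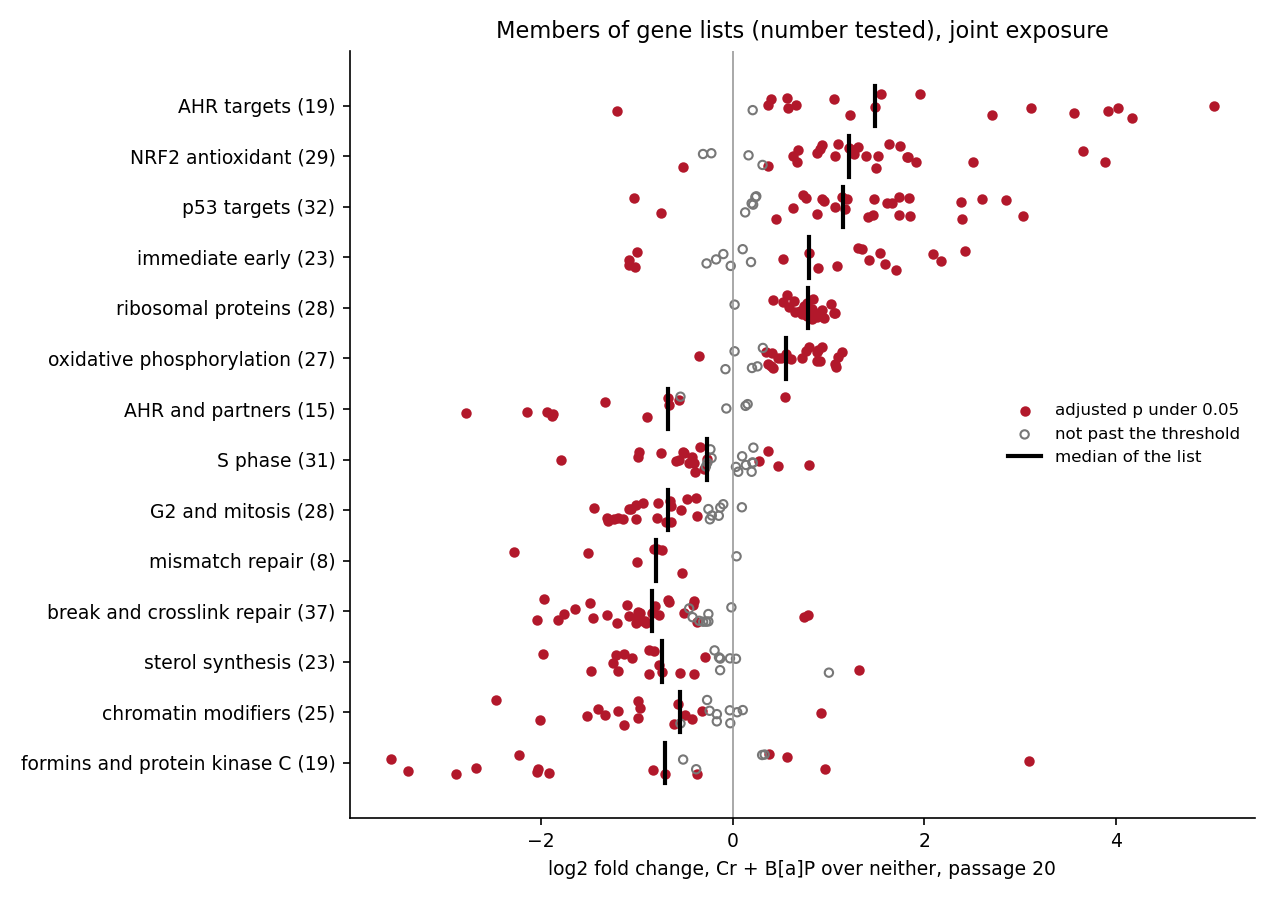
Log2 fold changes of the members of 14 gene lists, joint exposure over neither at passage 20, with the number of genes tested beside each list. Filled points passed an adjusted p of 0.05, open points did not, and black bars are list medians, from 1.48 for AHR targets to -0.85 for break and crosslink repair.

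Gene span went with the direction of change. Genes at least 2-fold lower in the joint exposure had a median genomic span of 86.1 kb and those at least 2-fold higher 9.999 kb, against 20.7 kb for all genes tested. Of 3967 genes under 10 kb, 5.75% were called at least 2-fold lower, and of 235 genes over 316 kb, 70.2% were. Over all genes tested the share was 13.6%. The shares called at least 2-fold higher were 17.4% and 0.426%, against 9.91% of all genes tested. The median log2 difference from neither of the genes over 316 kb was -1.59 and -1.70 in the libraries of the joint exposure, -1.31 and -1.47 with B[a]P alone and -0.66 and -1.31 with Cr(VI) alone. Between the libraries given neither it was -0.02. Among genes under 10 kb the medians were 0.29 and 0.49 in the joint exposure, 0.18 and 0.30 with B[a]P alone, and -0.01 and 0.63 with Cr(VI) alone. The joint libraries thus lay below the B[a]P libraries in genes over 316 kb. At passage 25, in other libraries, the median of that group of genes was -0.89 for the joint exposure against neither with the replicate block. Genes of the lists that fell included long and short ones. Atm spans 99.7 kb, Prkdc 205 kb and Prkce 490 kb, while Plk1 spans 10.4 kb and Dhcr7 25.2 kb.

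**Figure D4:**
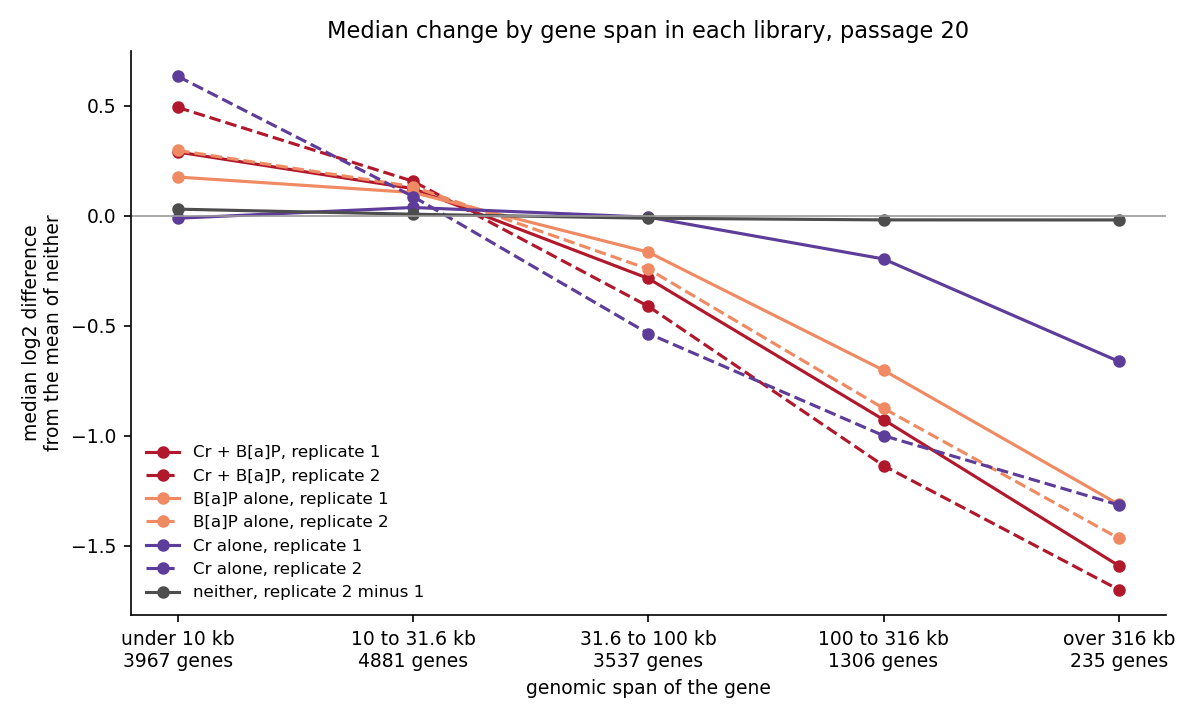
Median log2 difference from the mean of the libraries given neither, for genes grouped by genomic span, in each library of passage 20. Each line is a library, and the grey line compares the libraries given neither with each other; in genes over 316 kb the joint exposure is at -1.59 and -1.70 and the grey line at -0.02.

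Growth with Cr(VI) before B[a]P was then asked about directly, by setting the joint exposure against B[a]P alone. Of 13969 genes 526 were higher (3.77%) and 554 lower (3.97%), 203 and 90 of them at least 2-fold. Cyp1a1 had 1407 and 1363 CPM in the joint exposure and 1373 and 1395 CPM with B[a]P alone, a difference of 0.00 ± 0.11 SE on the log2 scale (adjusted p = 0.998). Cyp1a2 and Tiparp lay within 0.05 of 0 as well (adjusted p = 0.942 and 0.845). Cyp1b1 was lower, with 29.2 and 24.6 CPM in the joint exposure and 42.6 and 37.6 CPM with B[a]P alone (log2 -0.58, adjusted p = 0.049). Of the 19 AHR targets 9 were lower and 1 higher in the joint exposure, with a median of -0.58. The higher one was Nfe2l2, which encodes NRF2 itself, with 498 and 429 CPM in the joint exposure and 336 and 310 CPM with B[a]P alone (log2 0.52, adjusted p = 0.0472). The widest gap, singled out after its values were seen, was that of the aldehyde oxidase gene Aox3. It had 2.07 and 1.37 CPM in the joint exposure, 9.26 and 8.02 CPM with B[a]P alone, 0.837 and 0.659 CPM with Cr(VI) alone and 1.40 and 1.55 CPM with neither. The difference between joint exposure and B[a]P alone was -2.34 ± 0.23 (adjusted p = 0.0297), and against neither the joint exposure did not pass (log2 0.21, adjusted p = 0.536).

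Most NRF2 genes did not pass the threshold between these groups, and the named ones that passed went in both directions. Nqo1, which answers to both factors and is counted above among AHR targets, had 247 and 240 CPM in the joint exposure and 389 and 358 CPM with B[a]P alone (log2 -0.62, adjusted p = 0.0351). Srxn1, whose promoter carries TGANTCA at 102 and 45 bases before the start, had 157 and 147 CPM in the joint exposure and 322 and 295 CPM with B[a]P alone (log2 -1.02, adjusted p = 0.0343). Osgin1, with the same element at 97 bases, went the other way, with 297 and 286 CPM in the joint exposure and 159 and 174 CPM with B[a]P alone (log2 0.81, adjusted p = 0.0343). Gclc was lower in the joint exposure (log2 -0.57, adjusted p = 0.0487), and Hmox1 did not pass (log2 -0.21, adjusted p = 0.231). Of 29 NRF2 genes 1 was higher and 2 lower, and the other members did not pass. Of 32 p53 targets 2 were higher and 3 lower than with B[a]P alone. Of all genes tested 3.77% were higher and 3.97% lower. Btg2 had 75.0 and 77.1 CPM in the joint exposure and 110 and 113 CPM with B[a]P alone (log2 -0.55, adjusted p = 0.0371). Cdkn1a had 1594 and 1915 CPM in the joint exposure and 1208 and 1221 CPM with B[a]P alone, which just missed the threshold (log2 0.53, adjusted p = 0.0537).

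Few stress genes differed from B[a]P alone, and those that did went in both directions. Of 23 immediate early genes 1 was higher and 2 lower, and of 20 ATF4 stress genes 1 was higher and 1 lower. Of 14 heat shock genes 1 was higher and 2 lower, beside 3.77% higher and 3.97% lower of all genes tested. The higher ones included Fosl1, with 305 and 276 CPM in the joint exposure and 191 CPM in each B[a]P library (log2 0.60, adjusted p = 0.0351), and Ppp1r15a, with 241 and 261 CPM against 152 and 151 CPM with B[a]P alone (log2 0.73, adjusted p = 0.0343). The lower ones included Egr1, with 24.8 and 21.6 CPM in the joint exposure and 36.3 and 34.5 CPM with B[a]P alone (log2 -0.61, adjusted p = 0.0405), and the glutathione-degrading Chac1, with 1.76 and 1.92 CPM against 4.28 and 3.997 CPM with B[a]P alone (log2 -1.17, adjusted p = 0.0343). Usp18, which removes the interferon-induced modifier ISG15, had 122.1 and 139 CPM in the joint exposure and 67.5 and 71.8 CPM with B[a]P alone (log2 0.91, adjusted p = 0.0343). Ndrg1 had 56.1 and 62.6 CPM in the joint exposure and 40.7 and 40.1 CPM with B[a]P alone (log2 0.56, adjusted p = 0.0397). Of 23 sterol synthesis genes 5 were lower and 0 higher than with B[a]P alone, with Dhcr7 at 10.7 and 9.08 CPM in the joint exposure and 20.5 and 20.1 CPM with B[a]P alone (log2 -1.04, adjusted p = 0.0343). The adjusted p of these genes lay close to 0.05. The number of genes called was 0 with the spread of all 8 libraries, and it moved both up and down when 1 library was left out.

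The joint change was last compared with the sum of the single changes. On the log2 scale a departure of 0 means that the joint fold change equals the product of the single ones. In edgeR, 0 of 13969 genes passed (0%), while DESeq2 called 20 and 380 lay under 0.05 in edgeR before adjustment. The 0 does not show that joint changes equal the sum, since the duplicates of Cr(VI) alone spread widely. The count also changed when either Cr(VI) library was left out. Such a fit changes the sum and also loses the spread within that group, and these effects were not separated. The genes below are those with the smallest unadjusted p, and every one has an adjusted p of 0.9995, so they are given as values.

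Below the sum, in increasing unadjusted p, stood Inka2, Nqo1, Hmox1, Tnnc2 and Srxn1. Nqo1 had 247 and 240 CPM in the joint exposure, 389 and 358 CPM with B[a]P alone, 23.9 and 23.8 CPM with Cr(VI) alone, and 15.8 and 16.5 CPM with neither. Its joint log2 change of 3.91 compares with sums of 5.09 and 5.08 with the Cr(VI) libraries, a departure of -1.18 ± 0.17 (unadjusted p = 3.88e-04). Hmox1 had 75.0 and 71.5 CPM with Cr(VI) alone and 626 and 652 CPM with B[a]P alone, and its joint change of 3.88 compares with sums of 5.08 and 5.01 (departure -1.17 ± 0.18). Srxn1 had 44.96 and 39.9 CPM with Cr(VI) alone, level with the 44.9 and 41.3 CPM of neither, and its joint change of 1.82 compares with sums of 2.90 and 2.73 (departure -0.998 ± 0.19). Inka2 had 57.2 and 54.5 CPM in the joint exposure, 69.5 and 74.4 CPM with B[a]P alone, 46.5 and 41.4 CPM with Cr(VI) alone and 19.9 and 21.1 CPM with neither (departure -1.47 ± 0.20, and -1.54 and -1.38 with each Cr(VI) library). In each of these 4 genes the joint libraries were below those of B[a]P alone. Tnnc2, a troponin gene at low level here, had 11.7 and 11.5 CPM in the joint exposure, 5.56 and 7.20 CPM with B[a]P alone, 4.75 and 4.66 CPM with Cr(VI) alone and 0.766 and 0.837 CPM with neither (departure -1.68 ± 0.29, and -1.60 and -1.58 with each Cr(VI) library). Its joint level was the highest of the 4 groups.

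The scale of the sum matters for these genes. If the single increments are added in CPM instead of multiplied, with the mean of the Cr(VI) libraries, Srxn1 reached 49.4% of the sum, Inka2 58.5%, Nqo1 63.8%, Hmox1 82.0% and Tnnc2 113%. Cdkn1a, with 632 and 788 CPM with Cr(VI) alone, had a log2 departure of -1.19 ± 0.25, and -1.03 and -1.35 with each Cr(VI) library. Its joint level of 1755 ± 227 CPM (SD, n = 2) was 108% of the added level with replicate 1 of Cr(VI) alone and 98.1% with replicate 2, so it stood on no fixed side of the sum in CPM. Cyp1a1 was at 98.1% and 100.2% of the added level with each Cr(VI) library, Osgin1 at 154% and 131% and Ppp1r15a at 132% and 126%. Btg2 was at 61.6% and 65.6% and Gdf15 at 86.5% and 70.4%. With each library Srxn1, Inka2, Nqo1, Hmox1 and Tnnc2 kept their side of the sum. They were chosen by their departure in these same libraries, so keeping that side is no separate support. As values only, the joint level was under the sum on both scales for Srxn1, Inka2, Nqo1, Hmox1, Btg2 and Gdf15. It was under the sum on the log2 scale alone for Tnnc2 and Osgin1 (log2 departure of Osgin1 -0.62 ± 0.35, and -0.18 and -0.96 with each Cr(VI) library). The log2 departures of Btg2 were -1.41 and -0.94 and those of Gdf15 -1.11 and -2.03.

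Above the sum stood genes that fell. Nckap5 had 0.196 and 0.274 CPM in the joint exposure, 0.0607 and 0.0882 CPM with B[a]P alone, 0.777 and 0.471 CPM with Cr(VI) alone and 4.59 and 4.89 CPM with neither. Its B[a]P libraries held 2 and 3 counts, and the sum of its single changes lay below the value of a library with 0 counts, so no departure is given for it. Cdkal1 had 1.53 and 1.68 CPM in the joint exposure, 1.06 and 0.852 CPM with B[a]P alone, 4.45 and 4.05 CPM with Cr(VI) alone and 9.73 and 11.3 CPM with neither (departure 2.05 ± 0.30, and 1.93 and 2.07 with each Cr(VI) library). The zinc transporter gene Slc39a11 had 31.58 and 32.6 CPM in the joint exposure, 25.3 and 28.1 CPM with B[a]P alone, 26.5 and 27.03 CPM with Cr(VI) alone and 46.7 and 46.5 CPM with neither (departure 1.06 ± 0.20, and 1.08 and 1.05 with each Cr(VI) library). Dennd1a was at 1.67 ± 0.28 (1.71 and 1.58 with each library) and the fibrinogen gene Fga at 2.06 ± 0.37 (2.07 and 1.803). In Cdkal1, Dennd1a and Slc39a11 every library of each single exposure was below those of neither, and the joint libraries were above the product of these changes. These 3 genes span 405 to 664 kb. Over all genes longer than 316 kb the median departure was 0.42 with replicate 1 of Cr(VI) alone and 1.10 with replicate 2, and 0.39 and 0.99 without the 23 of them whose sum lay below the value of 0 counts.

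**Figure D5:**
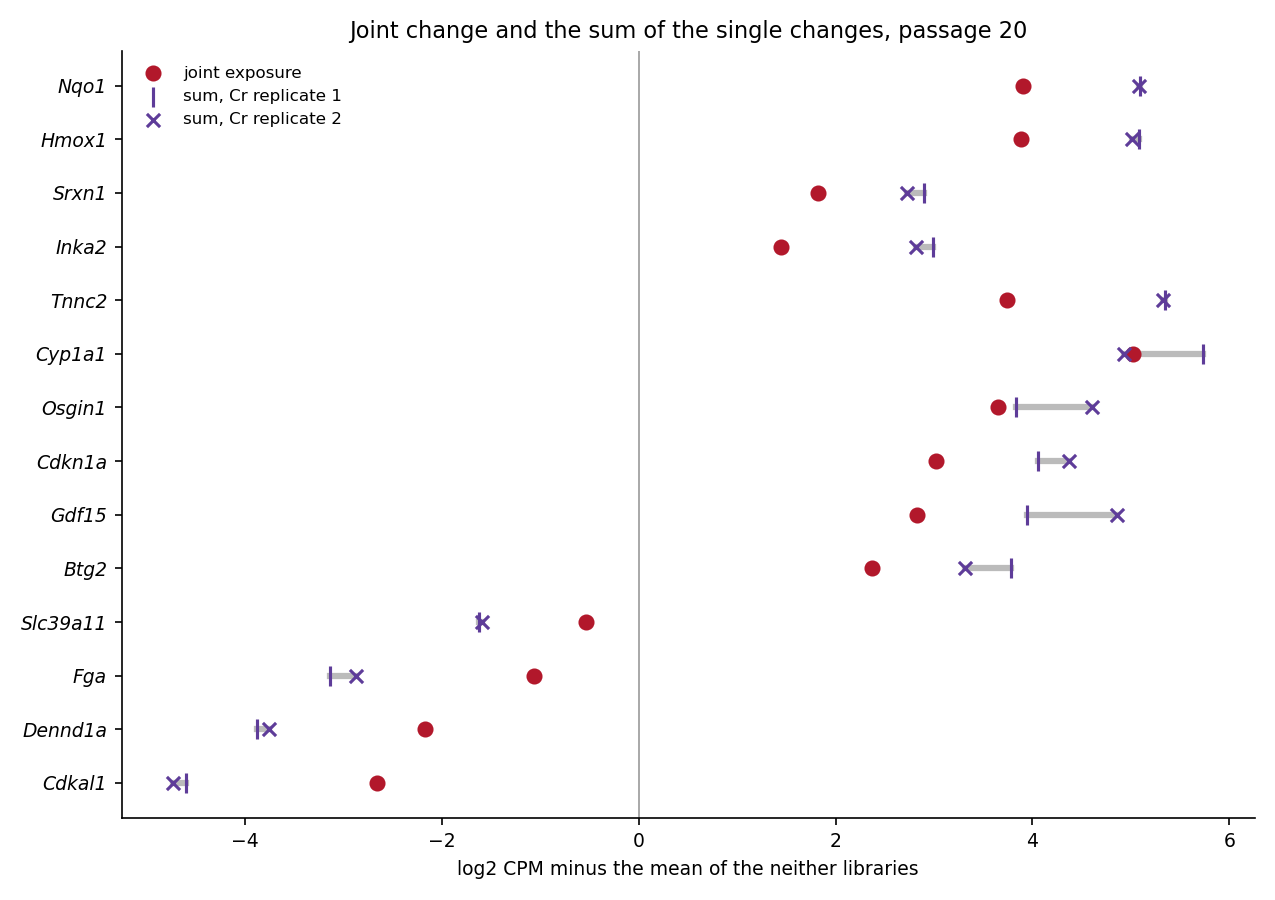
Joint change (red points) and the sum of the single changes computed with each library of Cr(VI) alone (purple bar for replicate 1, purple cross for replicate 2, joined by grey), in log2 CPM relative to the mean of neither, for 14 genes. Nqo1 lies at 3.91 against sums of 5.09 and 5.08, and Cdkal1 at -2.66 against sums of -4.59 and -4.73.

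Lists showed where the sum depended on the Cr(VI) library. The median departure of p53 targets was -0.64 with replicate 1 and -0.40 with replicate 2, and that of AHR targets -0.42 and -0.49, against 0.01 and 0.05 for all genes. For NRF2 genes it was -0.13 and -0.59. Ribosomal protein genes changed sign, with 0.51 using replicate 1 and -0.96 using replicate 2, as did oxidative phosphorylation with 0.24 and -0.81, so no direction is given for them.

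The same joint contrast was available at passage 25, where Cr(VI) growth had lasted 25 passages by the labels, while the titles of these libraries carry another passage number. In the 12 libraries of that passage 0 of 13692 genes passed without the replicate block (0%), with 506 at an unadjusted p under 0.05, and 594 passed with it (4.34%), 257 higher and 337 lower. Replicate numbers pair those libraries, and replicates 1 and 2 differ widely. Cyp1a1 had 847 and 1861 CPM in the joint exposure and 37.3 and 28.0 CPM with neither (log2 5.33 ± 0.45 with the block, adjusted p = 1.46e-04). Nqo1 had 297 and 488 CPM in the joint exposure and 50.5 and 45.7 CPM with neither (log2 3.04 ± 0.32, adjusted p = 7.19e-04). Btg2 had 67.0 and 69.5 CPM in the joint exposure and 8.13 and 7.67 CPM with neither (log2 3.12 ± 0.30, adjusted p = 4.64e-04). Cdkn1a, with 401 and 1420 CPM in the joint exposure and 160 and 199 CPM with neither, was at 2.17 ± 0.39 with the block (adjusted p = 0.0105). Sox5, Pknox2, Fhod3 and Prkce were lower with the block, with log2 changes of -3.46, -4.30, -2.74 and -2.49. Ahr did not pass there (log2 -0.77 ± 0.36, adjusted p = 0.255). List medians with the block were 2.16 for AHR targets, 0.40 for NRF2 genes, 0.90 for p53 targets, -0.56 for G2 and mitosis and -0.40 for break and crosslink repair, against -0.02 for all genes.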

How the data were processed

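RNA-seq counts per gene were used as the authors deposited them, 1 column per library. Per the submitters' processing notes, bcl2fastq, CASAVA 1.8, TopHat, DESeq and the build mm10 are named. No counting program, annotation or use of strand is given in the sources used here, so overlapping and antisense genes may share reads. Entrez IDs were given symbols, spans and promoters from the RefSeq table of GRCm38.p6, with 23275 of 23373 matched.

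Libraries were grouped by their labels. TMM factors and the filter on low counts (filterByExpr) were computed over the 8 libraries of passage 20 in edgeR 4.0.16 (R 4.3.3), and each contrast was tested by its quasi-likelihood test on the 4 libraries compared, with Benjamini-Hochberg adjustment over 13969 genes. A gene was called at an adjusted p under 0.05. The SE of a log2 change is its size divided by the square root of F. The departure from the sum is the interaction term over the 8 libraries. Sums given for a single Cr(VI) library use log2 CPM with a prior count of 2. At passage 25 all 12 libraries entered, and replicate numbers pair them there, since every pair of same-numbered libraries had a correlation of deviations between 0.83 and 0.93. Alternatives were DESeq2 1.42.0, voom in limma 3.58.1, other scalings, filters and fits, and leaving out each library. The fit was checked on simulated data, where the test of the departure missed most of the 2-fold changes put in. It missed most of the larger ones as well.

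Genes were named by rule: the 12 largest changes in each direction among called genes with at least 2 CPM in the higher group and no overlap, the 5 smallest p on each side of the sum, the strongest members of each list and a set of key genes. Genes named outside it are given as members of a list. A few list members counted in the totals are not reported here by name. The members and lists were chosen with earlier results of these data known. Total counts of 20976045 to 33113295 per library leave genes under 1 CPM imprecise, and counting intervals cover counting error only.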

Additional observations from a re-analysis of the deposited data

How the results depend on the processing

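Duplicates limit every comparison, since each contrast has 2 libraries a side. For the joint exposure against neither, 8302 genes were called, and the count moved to 3096 with the spread of 8 libraries, to 527 with all 20 and to 3652 when tested against a 1.5-fold change; leaving out 1 library gave 5844 to 10630. The other alternatives (DESeq2, other scalings, no filter, replicate block, voom) gave 7337 to 8908. B[a]P alone moved from 8149 to 1248 with 8 libraries, and leaving out 1 library gave 5905 to 9436. Cr(VI) alone moved from 0 to 1 with the replicate block, and leaving out 1 library gave 0 to 10702, the highest without its replicate 1 and 7102 without its replicate 2. The joint exposure against B[a]P alone moved from 1080 to 0 with 8 libraries and to 6323 with the replicate block, and leaving out 1 library gave 216 to 4961. The departure from the sum moved from 0 to 20 in DESeq2, and leaving out 1 library gave 0 to 5619. At passage 25 the joint exposure moved from 0 to 594 with the replicate block, and leaving out 1 library gave 0. In these fits a lone library was assumed to vary like the other group. At passage 20 the correlations of deviations of same-numbered libraries were 0.36, 0.46 and 0.62 among the 3 exposed groups and at most 0.07 with neither, so not every pair correlates and the libraries were taken to share only a number. Of 552 values for 46 genes, 475 kept direction and side of the threshold, 60 no longer passed, 16 newly passed and 1 reversed, Fasn (log2 -0.49 without replicate 1 of the joint exposure and 0.14 without replicate 2). The cause was not tested.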

Other observations

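The linker histone gene H1f2, singled out after its values were seen, was lower in the joint exposure than with B[a]P alone. It had 53.2 and 62.1 CPM in the joint exposure, 154 and 165 CPM with B[a]P alone, 42.3 and 51.1 CPM with Cr(VI) alone and 119.1 and 123.03 CPM with neither. The difference between joint exposure and B[a]P alone was -1.47 ± 0.12 SE on the log2 scale (edgeR, adjusted p = 0.0297). Reads of histone genes can be split between near-identical copies. Of 16 circadian clock genes 9 were lower and 4 higher in the joint exposure than with neither, and of 22 genes of hypoxia and glycolysis 11 were higher and 6 lower, where 28.6% of all genes tested were higher and 30.8% lower.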
